A study of Mus musculus with 41 samples.

Results

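The 10 genes of MHC antigen presentation described here were followed across the study, as 10 of the 34591 entries of the deposited expression table whose gene name equals H2-Ab1, H2-Aa, H2-Eb1, Cd74, H2-K1, H2-D1, B2m, Tap1, Tapbp or Psmb8. All 10 were found once each. RNA-seq covered 41 mouse libraries, 29 from pieces of snap-frozen brainstem tumor and 12 from neurospheres, which are cultures of neural precursor cells grown as floating clusters. The table gives FPKM, which scales fragment counts by transcript length and library size, so levels can be set side by side between genes. The K27M groups carried H3f3aLSL-K27M-Tag/+, a Cre-activated allele for tagged histone H3.3 in which lysine 27 is methionine, and the WT-Tag groups the matching allele for tagged wild-type H3.3.

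There were 20 K27M tumors (labelled 11 female and 9 male) and 9 WT-Tag tumors (6 female and 3 male). All tumors also carried Nestin-creERT2, a Cre whose driver is active in neural progenitors and that needs tamoxifen, a Cre-activated PDGFRαV544ins receptor transgene and Trp53flox/flox. There were 3 K27M and 3 WT-Tag forebrain neurospheres and 3 K27M and 3 WT-Tag hindbrain neurospheres, all from e15.5 embryos and with Nestin-cre, with neither the receptor transgene nor the Trp53 alleles listed. The ages of tumor-bearing mice and the strain background are not in the labels used here. The tumors are numbered as in the labels and the cultures by the labelled experiment id, 1 to 3. The labels name no animal for a tumor. Forebrain and hindbrain cultures of 1 genotype and experiment share a letter in their titles, whose meaning is not stated. The p-values therefore measure the spread between these libraries, which may be in part technical.

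MHC class II molecules present peptides from taken-up material to CD4+ T cells and are made mainly by macrophages, dendritic cells and B cells, in brain also by activated microglia, under the control of the transactivator CIITA. MHC class I molecules present peptides made by the proteasome to CD8+ T cells and are carried by most cell types, at low levels in resting brain. Interferon gamma raises both sets, class I genes through the related transactivator NLRC5. H2-Aa and H2-Ab1 encode the alpha and beta chains of the I-A class II molecule, H2-Eb1 the beta chain of I-E, and Cd74 the invariant chain that guides class II molecules through the cell. H2-K1 and H2-D1 encode class I heavy chains and B2m the light chain they share. Psmb8 encodes a catalytic subunit of the immunoproteasome, Tap1 a subunit of the peptide transporter and Tapbp tapasin, which loads class I molecules.

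Class I and class II promoters share a short module of conserved boxes, and the sequences before the start of 5 members are shown to let this module be read in both classes. Of the 10 members 8 had an entry in the RefSeq promoter table of build GRCm38.p6, H2-K1 with 2 of which the first is used. H2-Ab1 and Cd74 had none. The 180 bases before the annotated start are given 5′ to 3′, and capitals mark ATTGG, the core of the Y box (or CCAAT, the same box on the other strand), TGACG, the core of the X2 box (or its complement CGTCA), and the letters GGGGATTCCCC of the enhancer A site, which NF-kappaB factors bind, as they stand in H2-K1.
H2-Aa (chr17:34287824-34288003, minus strand): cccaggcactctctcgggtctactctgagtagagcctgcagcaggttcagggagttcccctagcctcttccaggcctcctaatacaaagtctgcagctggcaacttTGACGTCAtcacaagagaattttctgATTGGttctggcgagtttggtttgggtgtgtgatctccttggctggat
H2-Eb1 (chr17:34305687-34305866, plus strand): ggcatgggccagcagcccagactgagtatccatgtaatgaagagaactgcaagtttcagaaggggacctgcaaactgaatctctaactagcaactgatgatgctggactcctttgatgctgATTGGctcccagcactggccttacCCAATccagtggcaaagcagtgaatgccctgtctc
H2-K1 (chr17:34000348-34000527, minus strand): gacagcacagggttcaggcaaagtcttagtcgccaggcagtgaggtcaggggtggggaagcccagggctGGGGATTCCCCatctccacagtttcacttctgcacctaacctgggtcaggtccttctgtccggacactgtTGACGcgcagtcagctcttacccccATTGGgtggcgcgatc
H2-D1 (chr17:35262914-35263093, plus strand): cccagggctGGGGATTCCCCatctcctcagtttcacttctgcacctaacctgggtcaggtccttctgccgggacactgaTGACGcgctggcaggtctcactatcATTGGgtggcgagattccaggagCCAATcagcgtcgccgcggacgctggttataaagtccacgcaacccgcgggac
B2m (chr2:122147507-122147686, plus strand): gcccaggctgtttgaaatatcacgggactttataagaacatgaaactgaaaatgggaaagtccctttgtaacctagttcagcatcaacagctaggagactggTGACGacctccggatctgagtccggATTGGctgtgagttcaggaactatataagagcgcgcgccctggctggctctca

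In 4 of the 8 members with an entry, all among the 5 shown, TGACG was followed by ATTGG in the same orientation, with the first bases of the 2 motifs 25 bases apart in B2m, H2-K1 and H2-D1 and 26 bases apart in H2-Aa. This spacing, read from these sequences first, was found in 22 of 32851 windows of the table, these 4 genes included, or 0.067%. Taken alone, and searched on both strands, ATTGG was in 27.47% of windows and TGACG in 14.83%. H2-Eb1 held ATTGG on each strand and no TGACG in these 180 bases, and in H2-Aa TGACG on one strand overlapped TGACG on the other. The letters GGGGATTCCCC stood in the windows of H2-K1 and H2-D1 and in 0.0274% of all windows. Where both upstream sequences could be aligned, H2-K1 and H2-D1 were identical in 108 of 121 columns, or 89.3%. Of the 3 members not shown Tap1 held TGACG, Tapbp ATTGG and Psmb8 none of the 3 motifs. A match of letters shows no binding of a factor.

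Near-identical transcripts limit the class I values. In the GENCODE M21 transcripts, 14.3% of the 50-base windows of H2-D1 and 8.79% of those of H2-K1 also occur in another gene, most often H2-Q1 for H2-D1 and H2-D1 for H2-K1 (6.94%). The shares were 2% for Tapbp and 0.861% for Tap1 and 0 for H2-Ab1, H2-Aa, H2-Eb1, Cd74, B2m and Psmb8. Relative depth, read from the steps between low FPKM values, ran from 0.278 to 1.88 over the libraries, with a median of 0.964 over K27M tumors and 1.33 over WT-Tag tumors, and culture group medians of 0.823 to 1.13. Sex-linked transcripts of WT-Tag tumors 8 and 9 go against their sex labels, and tumor results were also computed without them. In experiment 3 the K27M cultures are labelled female and the WT-Tag cultures male.

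In K27M and WT-Tag tumors alike, all 10 genes varied widely from tumor to tumor and none passed the test of a difference between the genotypes. H2-Ab1 ran from 5.50 through a median of 28.2 to 92.8 FPKM in K27M tumors, against 3.45 through 42.5 to 137 FPKM in WT-Tag tumors. H2-Aa ran from 1.81 through 17.3 to 93.5 FPKM in K27M tumors, against 2.87 through 20.8 to 123 FPKM in WT-Tag tumors. Cd74 ran from 4.83 through 23.7 to 95.2 FPKM in K27M tumors, against 5.64 through 26.9 to 153 FPKM in WT-Tag tumors. The ranges of the genotypes overlapped almost completely, with K27M tumor 17 lowest and K27M tumor 24 highest of its genotype for all 3 genes. H2-Eb1 ran from 0.779 through 7.05 to 68.8 FPKM in K27M tumors, against 1.76 through 3.31 to 72.3 FPKM in WT-Tag tumors.

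**Figure D1:**
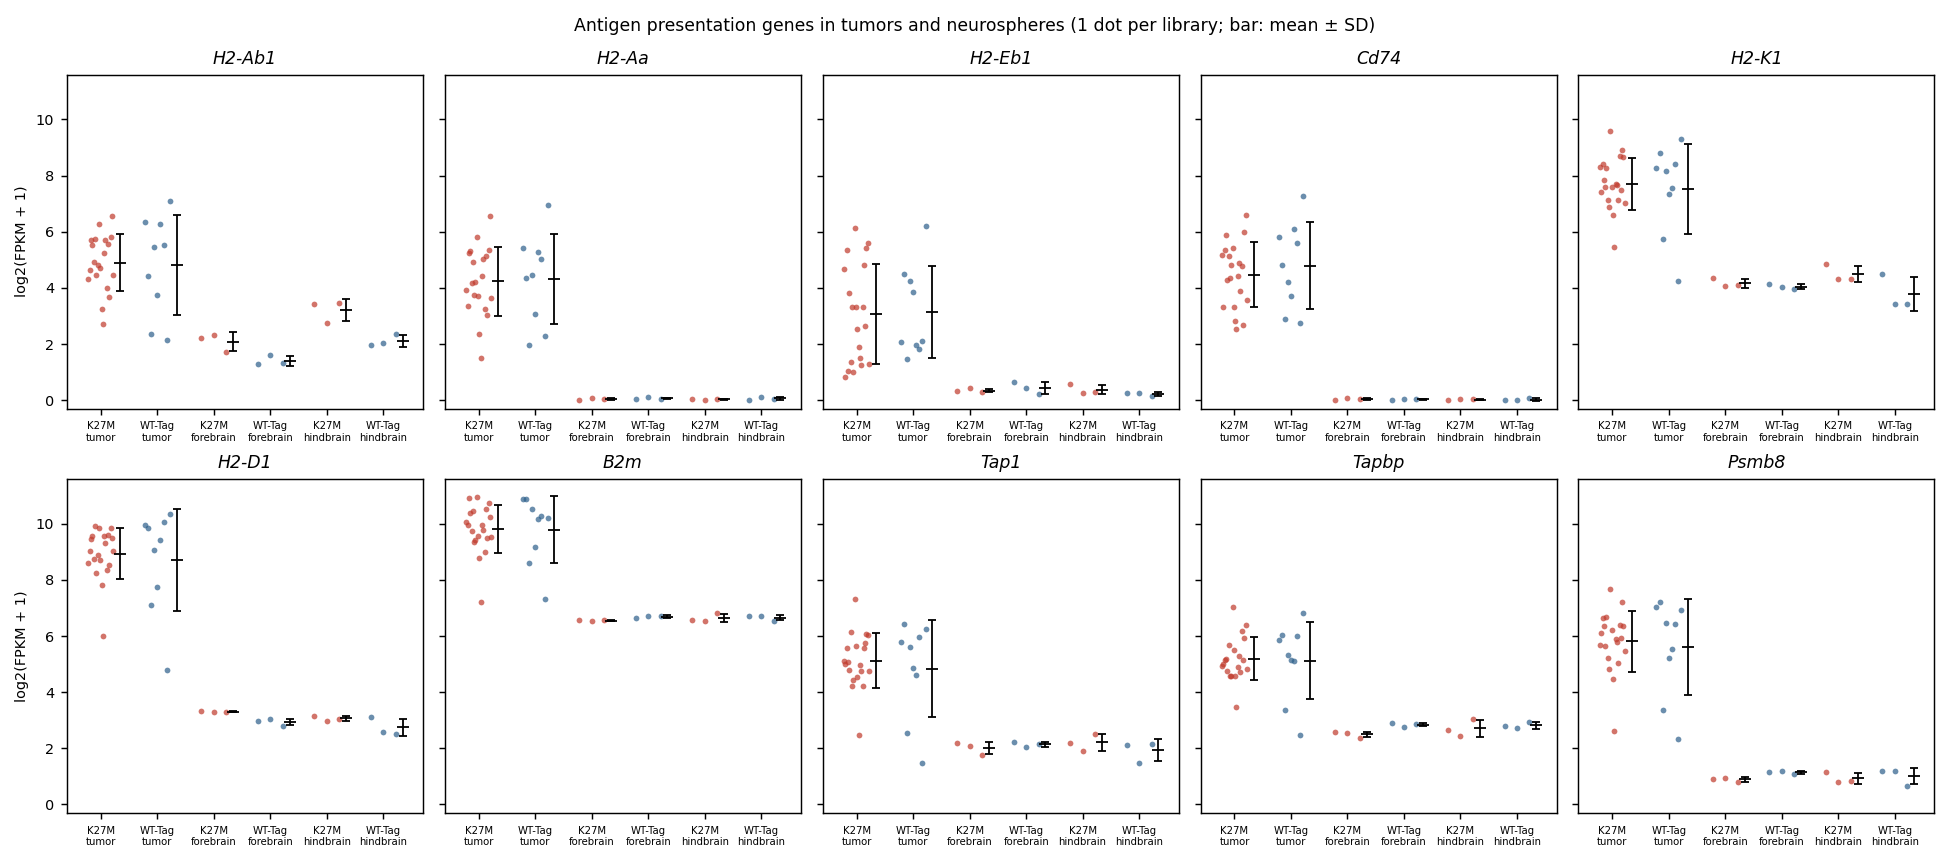
The vertical axes give log2(FPKM + 1) of the 10 genes for each library in 6 groups from left to right (K27M and WT-Tag tumors, forebrain neurospheres and hindbrain neurospheres); horizontal marks with bars give the mean ± SD. Tumors spread over several log2 units for every gene, H2-Aa, H2-Eb1 and Cd74 lie near 0 in the cultures, and H2-Ab1 does not.

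Class I genes stood higher and spread as widely. B2m ran from 147 through a median of 935 to 1971 FPKM in K27M tumors, against 157 through 1192 to 1893 FPKM in WT-Tag tumors. H2-D1 ran from 62.4 through 523 to 964 FPKM in K27M tumors, against 26.7 through 691 to 1302 FPKM in WT-Tag tumors. H2-K1 ran from 42.7 through 198 to 773 FPKM in K27M tumors, against 17.9 through 288 to 626 FPKM in WT-Tag tumors. K27M tumor 17 and WT-Tag tumor 28 held the lowest value of their genotype for these 3 genes and for Tap1, Tapbp and Psmb8. Psmb8 ran from 5.08 through 58.8 to 202 FPKM in K27M tumors, against 4.02 through 85.8 to 148 FPKM in WT-Tag tumors. Tap1 ran from 4.58 through 31.8 to 160 FPKM in K27M tumors, against 1.76 through 47.4 to 85.5 FPKM in WT-Tag tumors. Tapbp ran from 10.2 through 32.9 to 130 FPKM in K27M tumors, against 4.55 through 39.2 to 113 FPKM in WT-Tag tumors. K27M tumor 14 was the highest of its genotype for H2-K1, B2m, Tap1, Tapbp and Psmb8.

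The comparison of K27M with WT-Tag tumors asks what the mutant histone changes on a shared receptor and Trp53 background. In limma on log2(FPKM + 1), 0 of 10 members passed an adjusted p of 0.05, where 0.0846% of the 15360 genes tested passed, 0.0456% higher and 0.0391% lower (13 genes, and 1104 at an unadjusted p under 0.05). The log2 changes lay between −0.33 ± 0.49 (SE) for Cd74 and 0.28 ± 0.48 for Tap1, with 7 of 10 positive, a median of 0.08 against −0.01 over all genes, and adjusted p from 0.902 to 0.993. H2-K1 had a change of 0.18 ± 0.44, H2-D1 of 0.22 ± 0.48, H2-Ab1 of 0.09 ± 0.49 and H2-Eb1 of −0.08 ± 0.66. Standard errors of this size leave room for differences between the genotypes that these 29 tumors could not show.

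The same held for the genes around the members. Of 7 other class II genes listed, 4 entered the test and none passed, with a median log2 change of −0.23. Of 8 genes of class II control and invariant chain processing, such as Ciita and the cathepsin gene Ctss, none passed and all were negative, with a median of −0.12. No gene passed among 13 other class I genes (median 0.04), 11 other genes of peptide supply and loading (median −0.11) or 30 genes of interferon signaling and response (median 0.13). The lists of cell markers also held no call, with 21 microglia and macrophage genes at a median of −0.14, 5 monocyte genes at 0.27, 4 dendritic cell genes at 0.16, 2 T and NK cell genes at 0.02, 7 endothelial genes at 0.09 and 9 genes of neural progenitors and glioma at −0.09. No B cell gene passed the filter. In bulk tissue, fewer cells of a type and less RNA per cell cannot be told apart.

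H2-Eb1 did not follow the other class II genes. In 10 tumors it was far below H2-Ab1, at 0.0238 to 0.0683 of the H2-Ab1 level, and in the other 19 it stood at 0.357 to 1.31 of it, with no tumor between. The 10 were K27M tumors 2, 4, 6, 13, 18, 19 and 25 and WT-Tag tumors 7, 26 and 27, so both genotypes held both kinds. K27M tumor 4 had 44.7 FPKM of H2-Ab1 and 1.06 FPKM of H2-Eb1, whereas K27M tumor 21, with 46.8 FPKM of H2-Ab1, had 27.1 FPKM of H2-Eb1. Among WT-Tag tumors, tumor 27 had 45.2 FPKM of H2-Ab1 and 2.51 FPKM of H2-Eb1, whereas tumor 10 had 42.5 FPKM of H2-Ab1 and 18.0 FPKM of H2-Eb1. The highest ratio of H2-Eb1 to H2-Ab1 was 55.1 times the lowest among K27M tumors and 27.8 times among WT-Tag tumors. For H2-Aa over H2-Ab1 the same span was 3.06 times among K27M and 2.30 times among WT-Tag tumors, and for Cd74 over H2-Ab1 it was 5.14 times among K27M and 3.96 times among WT-Tag tumors.

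**Figure D2:**
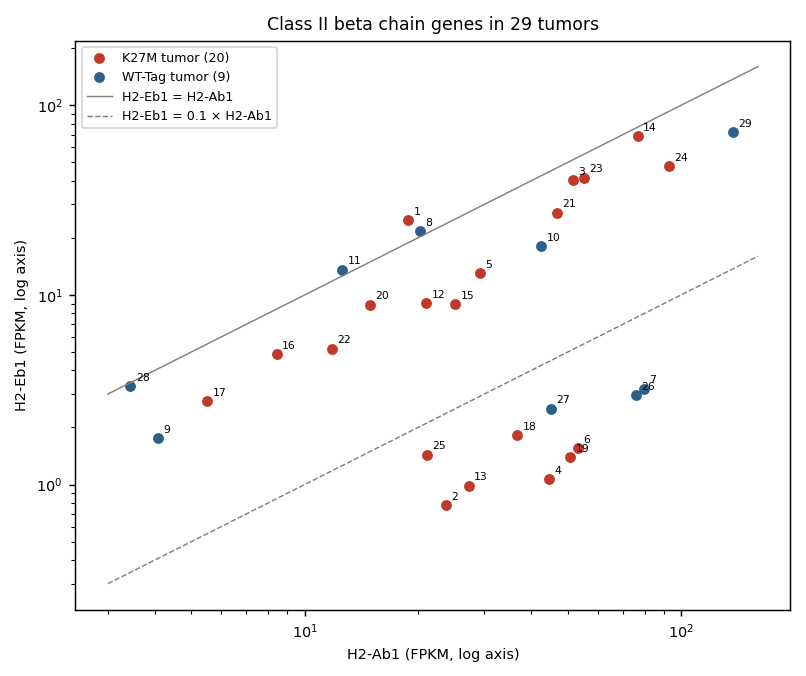
H2-Eb1 against H2-Ab1 in FPKM, both on log axes, with 1 numbered point per tumor (20 K27M in red, 9 WT-Tag in blue) and lines where H2-Eb1 equals H2-Ab1 or 0.1 of it. The 10 points under the dashed line have ratios of up to 0.0683 and the 19 above it of at least 0.357.

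The same 10 tumors stood at one end for some other genes of the locus and not for all. They held the 10 highest ratios of H2-D1 to H2-K1, at 3.02 to 4.07, where the other tumors ran from 1.18 to 2.63. They also held the 10 lowest ratios of the class I gene H2-T22 to B2m, at 0.00604 to 0.0104, where the others ran from 0.0125 to 0.0815. For H2-T23 over B2m they did not stand apart, at 0.0132 to 0.0301, since 2 of the other tumors lay within that range and 1, WT-Tag tumor 9, below it at 0.00772. H2-Ea-ps, the alpha chain gene of I-E that is a pseudogene in the C57BL/6 reference genome, did not separate them by FPKM. It was at 1.29 to 9.14 FPKM in the 10 and at 0 to 7.14 FPKM in the other 19, of which 8 lay within the range of the 10 and 11 below it. Unlike the other genes, H2-Ea-ps was taken as FPKM and not as a ratio. Whether its ratio to H2-Ab1 separates the 10 was not tested. These ranges were read from the data after the values were seen and carry no test. H2 genes differ in sequence between mouse strains, and the part of strain or of mapping to 1 reference haplotype in this pattern was not tested.

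The other 9 genes moved together from tumor to tumor. H2-Eb1, whose ratio to H2-Ab1 falls into separate ranges, is left out of the values below. With it, 41 of 45 pairs passed the permutation test of r in K27M tumors, where the lowest r was 0.225. In WT-Tag tumors 36 of 45 passed, and the lowest r was 0.354. Across the 20 K27M tumors the 3 class II pairs among H2-Ab1, H2-Aa and Cd74 had Pearson's r of 0.869 to 0.980 on log2(FPKM + 1) (Spearman's rho 0.833 to 0.947), and the 15 pairs among H2-K1, H2-D1, B2m, Tap1, Tapbp and Psmb8 had r of 0.781 to 0.955 (rho 0.705 to 0.932). The 18 pairs of 1 gene from each set had r of 0.542 to 0.890 (rho 0.532 to 0.895). All 36 pairs passed the permutation test with 100000 resamples, for r (p from 1e-05 to 0.0119, adjusted p up to 0.0141 over 45 pairs) and for rho, where 1e-05 is the smallest p the resamples can give. Each pair was also taken without the 2 tumors farthest from the median of its later gene in the opening list. The tumors left out thus differ between pairs. The r of these 36 pairs was then 0.385 to 0.970, and of all 45 pairs 37 passed in place of 41. The share of pairs of other genes that passes was not computed for either genotype. These counts are therefore not shown to be particular to the members.

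Across the 9 WT-Tag tumors the same 36 pairs had r of 0.726 to 0.989 and rho of 0.55 to 0.983, and all 36 passed the exact permutation test of r (p from 5.51e-06 to 0.0240, adjusted p up to 0.0300), but 17 passed that of rho. With the 2 farthest tumors of each pair left out in the same way r ran from 0.177 to 0.973, and of all 45 pairs 4 passed in place of 36. The 3 class II pairs without H2-Eb1 kept r of 0.917 to 0.973. Whether the lost calls come from the tumors left out or from having 7 tumors was not tested.

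**Figure D3:**
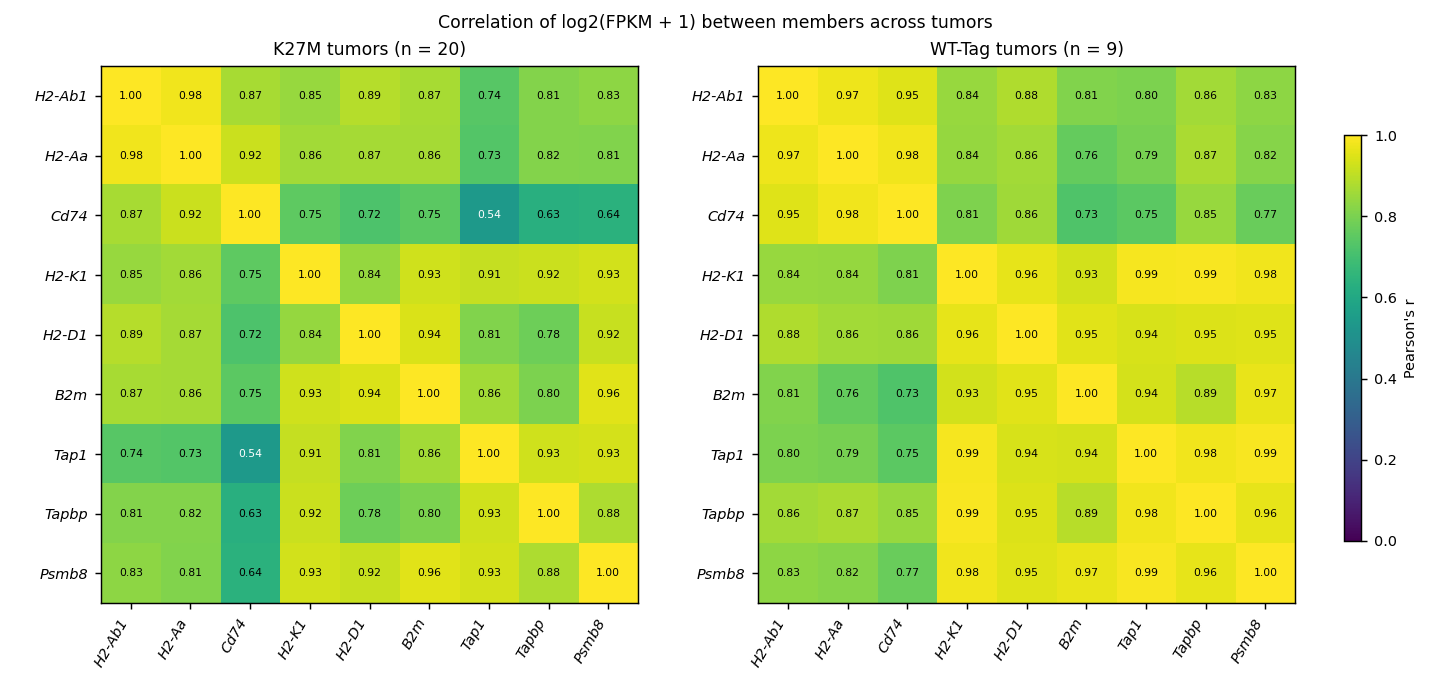
Pearson's r of log2(FPKM + 1) between 9 of the members across 20 K27M tumors (left) and 9 WT-Tag tumors (right), printed in each cell and shown by color from 0 to 1. H2-Eb1 is left out because its ratio to H2-Ab1 falls into separate ranges. The lowest r shown is 0.542 in K27M and 0.726 in WT-Tag tumors.

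The level of the members was then set against 3 marker lists, each summed up as its mean log2(FPKM + 1), in 30 relations per genotype. The interferon list had the highest median r in both genotypes, and Cd74 in K27M tumors was the member with a higher r for microglia and macrophages (0.744) than for interferon (0.623). Leaving out H2-Eb1, r with the interferon list in K27M tumors was 0.623 (Cd74) to 0.975 (Psmb8), with a median of 0.918, and all 9 passed (rho 0.599 to 0.970, permutation p up to 0.00258, adjusted p up to 0.00352). With the T and NK cell list r was 0.621 to 0.816 and all 9 passed (rho 0.606 to 0.788, adjusted p up to 0.00457). With the microglia and macrophage list r was 0.361 (Tapbp) to 0.744 (Cd74), and 7 of 9 passed (rho 0.257 to 0.752, adjusted p up to 0.118). Without the 2 tumors farthest from the median of each list the ranges were 0.513 to 0.936 for interferon, 0.604 to 0.870 for T and NK cells and 0.0667 to 0.626 for microglia and macrophages. Of all 30 relations 20 then passed in place of 26. With a pseudocount of 0.1 the T and NK cell range was 0.459 to 0.687. Whether r differed between the lists was not tested. The share of all genes that passes with each list was not computed for either genotype, so the counts are not shown to be particular to the members.

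In WT-Tag tumors r without H2-Eb1 was 0.756 to 0.990 with the interferon list (9 of 9 passed, rho 0.683 to 0.983, exact permutation p up to 0.0118, adjusted p up to 0.0254). It was 0.673 to 0.936 with the T and NK cell list (8 of 9, rho 0.633 to 0.983, adjusted p up to 0.0811) and 0.316 to 0.709 with the microglia and macrophage list (1 of 9, rho 0.35 to 0.867, adjusted p up to 0.416). Without the 2 farthest tumors r ranged from 0.343 to 0.985, from 0.0778 to 0.869 and from −0.323 to 0.509 for the 3 lists, and 2 of the 30 relations passed in place of 18. The T and NK cell list is weakly measured. Of its 14 genes 12 had a mean under 1 FPKM in each tumor genotype, its summed level ran from 1.80 to 32.3 FPKM in K27M and from 1.14 to 20.4 FPKM in WT-Tag tumors, and Cd3e, a defining T cell gene, averaged 0.0263 ± 0.0522 FPKM in K27M (SD, n = 20) and 0.00789 ± 0.00992 FPKM in WT-Tag tumors (n = 9). The interferon list summed to 271 to 7595 FPKM in K27M and 151 to 4791 FPKM in WT-Tag tumors, while Ifng itself averaged 0.0093 ± 0.0162 FPKM in K27M and 0.0030 ± 0.00596 FPKM in WT-Tag tumors. The microglia and macrophage list summed to 282 to 985 FPKM in K27M and 331 to 1016 FPKM in WT-Tag tumors. The part of cell makeup in the members' spread was not tested beyond these relations.

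**Figure D4:**
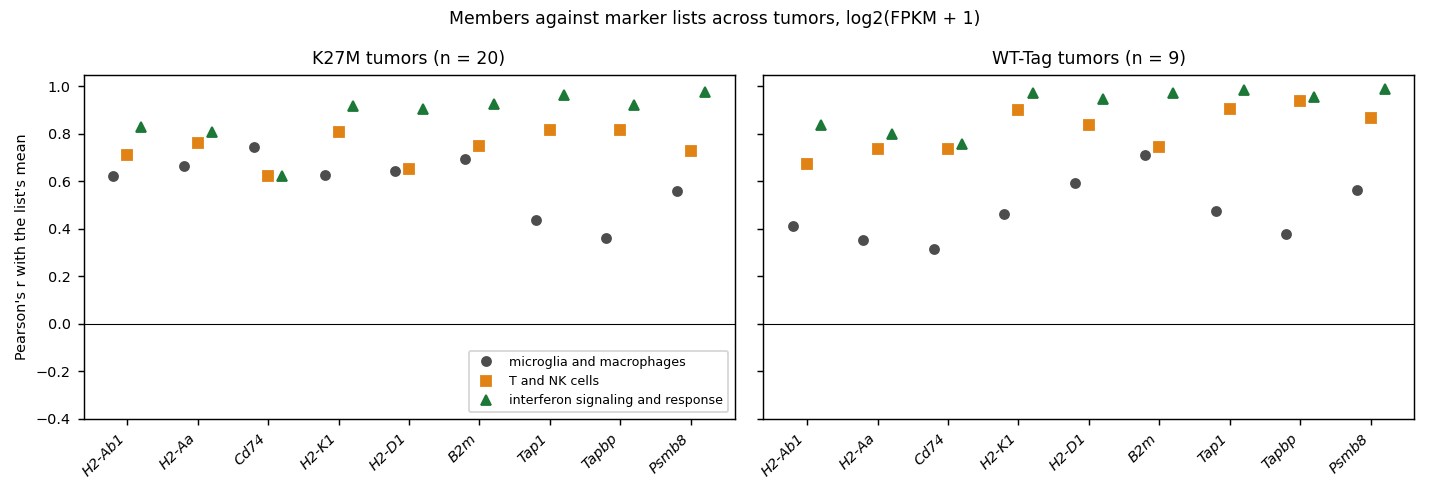
Pearson's r on the vertical axis between each of 9 members (horizontal axis) and the mean log2(FPKM + 1) of 3 marker lists, across 20 K27M tumors (left) and 9 WT-Tag tumors (right). Green triangles, the interferon list, reach 0.975 in K27M and 0.990 in WT-Tag tumors, and grey circles, microglia and macrophages, reach 0.744 in K27M and 0.709 in WT-Tag tumors.

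Genes outside the 10 with the most similar pattern were found among 15350 genes by r across the 20 K27M tumors. Those closest to H2-Ab1 were Gbp8, of the interferon-induced guanylate binding protein family (r = 0.949), Lgals3bp (0.942), Ly6e (0.934), Il18bp, which encodes a secreted inhibitor of interleukin 18 (0.923), and Tapbpl, a relative of tapasin (0.916), with rho of 0.886 to 0.946. Across the 9 WT-Tag tumors, which the choice did not use, their r was 0.891, 0.835, 0.851, 0.875 and 0.888 and their rho 0.617 to 0.833. The genes closest to H2-K1 were the class I genes H2-Q6 (0.940), H2-Q7 (0.937) and H2-Q4 (0.932), with Rnf135 (0.937) and Lgals9 (0.931). Their r in WT-Tag tumors was 0.985 for H2-Q6, 0.962 for H2-Q7, 0.992 for H2-Q4, 0.909 for Rnf135 and 0.968 for Lgals9, with rho of 0.767 to 0.983. In the exact permutation tests the 10 WT-Tag r had p of 5.51e-06 to 0.00505 and adjusted p of 5.51e-05 to 0.00505, and rho had p up to 0.0857. Without the 2 tumors farthest from the median of the similar gene the WT-Tag r were 0.387 (Lgals3bp) to 0.956 (H2-Q4). H2-K1 shares sequence with other class I genes, as given above.

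In tumors all 10 genes were on average higher than in hindbrain cultures of the same genotype. In this comparison tissue, age, Cre driver, receptor and Trp53 alleles differ together. On the log2(FPKM + 1) scale, which understates changes of genes near 0 in the cultures such as Cd74 and H2-Aa, the largest difference was that of H2-D1, with 558 ± 250 FPKM in K27M tumors and 7.39 ± 0.554 FPKM in K27M hindbrain cultures (SD, n = 20 and 3), a log2 change of 5.86 ± 0.65. In WT-Tag tumors it was 656 ± 456 FPKM against 5.80 ± 1.58 FPKM in WT-Tag hindbrain cultures (n = 9 and 3), a change of 5.97 ± 0.71. Psmb8 changed by 4.87 ± 0.68 in K27M and 4.60 ± 0.73 in WT-Tag, and Cd74 by 4.44 ± 0.67 in K27M and 4.77 ± 0.72 in WT-Tag. The other changes ran from 2.48 (Tapbp) to 4.20 (H2-Aa) in K27M and from 2.30 (Tapbp) to 4.24 (H2-Aa) in WT-Tag, apart from H2-Ab1. In limma over all 41 libraries 10 of 10 were called higher in both genotypes, beside 33.1% of 16803 genes called higher (59.6% in either direction) in K27M and 28.9% (46.3%) in WT-Tag. H2-Aa, H2-Eb1 and Cd74 reached 1 FPKM in no culture and entered this fit only through the tumors. Their direction was thus fixed by the filter and is no separate result. The median over the 10 was 3.19 in K27M, where it was 0.10 over all genes tested, and 3.44 in WT-Tag, where it was 0.16.

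On that scale the smallest difference in K27M was that of H2-Ab1, with a mean of 35.8 FPKM in tumors and 8.45 ± 2.38 FPKM in hindbrain cultures (log2 change 1.70 ± 0.67, adjusted p = 0.0284). K27M tumors 16 and 17 lay at or below the highest K27M hindbrain culture. The call was lost with no filter (adjusted p = 0.0528) and without K27M hindbrain culture 1, 2 or 3 (0.0650, 0.132 and 0.0578). In WT-Tag the H2-Ab1 change was 2.71 ± 0.72 (adjusted p = 0.00257), with tumors 9 and 28 at or below the highest culture. For the other 9 genes the adjusted p was at most 0.0136, H2-Eb1 included (2.69 ± 0.90 in K27M, 2.92 ± 0.97 in WT-Tag). Single tumors reached down to the cultures for some of these genes too. K27M tumor 17 for Tap1, and WT-Tag tumor 28 for H2-K1, Tap1 and Tapbp, lay at or below the highest hindbrain culture of their genotype. H2-D1 was above H2-K1 in all 29 tumors, with a ratio of 1.18 to 4.07, and below it in all 12 cultures, at 0.289 to 0.561. Both genes share sequence with other class I genes, as given above. The part of strain or mapping in their tumor and culture values was not tested.

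Most of the tested genes around the members were higher in tumors too, as were most tested markers of immune and endothelial cells apart from the dendritic cell list. Of 9 neural progenitor and glioma genes 2 were higher in each, with 6 lower in K27M and 4 in WT-Tag. Of 14 other class I genes tested 12 were higher in the K27M comparison and 11 in the WT-Tag comparison, led by H2-Q4 (5.54 in K27M, 5.49 in WT-Tag), and 1 was lower in each. Of 11 other genes of peptide supply 8 were higher and 1 lower in each genotype, led by Nlrc5 (3.88 ± 0.59 in K27M, 3.97 ± 0.63 in WT-Tag). Of 6 other class II genes 5 were higher in each, among them H2-DMb1, a chain of the peptide loading factor of class II (2.85 in K27M, 2.89 in WT-Tag). Of 8 class II control and processing genes 5 were higher in each and 2 lower in K27M and 1 in WT-Tag, with Ctss, a protease that cuts the invariant chain, at 7.54 ± 0.31 in K27M and 7.49 ± 0.33 in WT-Tag and Ciita at 1.23 ± 0.38 in K27M and 1.55 ± 0.41 in WT-Tag. Of 30 interferon genes 25 were higher in K27M, 26 in WT-Tag, with 1 lower in K27M, and Ifit3 stood at 6.99 in K27M and 6.50 in WT-Tag. All 21 microglia and macrophage genes were higher in both genotypes, at a median of 2.97 in K27M and 3.12 in WT-Tag, and their summed level was 282 to 1016 FPKM in tumors and 13.5 to 23.6 FPKM in cultures. The 8 endothelial genes were all higher as well (median 1.83 in K27M, 1.94 in WT-Tag), and the 2 tested T and NK cell genes, Ccl5 and Lck, were called higher in both. In each culture group 18 of the 21 microglia and macrophage genes and all 8 endothelial genes had a mean under 1 FPKM. Genes that low in cultures entered this fit mainly through the tumors, so these counts were largely set by the filter. Some genes of the other immune lists were as low in cultures. The Lck call was lost in 3 of 9 alternatives in K27M (adjusted p up to 0.253) and in 2 of 9 in WT-Tag (up to 0.139). Of 6 monocyte list genes 5 were higher in each genotype (median 1.92 in K27M, 1.46 in WT-Tag). Of 4 dendritic cell genes 2 were higher and 1, Zbtb46, lower in each (−0.90 ± 0.14 in K27M, −0.57 ± 0.15 in WT-Tag), and the Zbtb46 call was lost with forebrain cultures as the reference (adjusted p = 0.863 in K27M, 0.140 in WT-Tag). The part of each cell type in the members' difference was not tested.

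The cultures held class I transcripts and, of the 4 class II members, almost only H2-Ab1. Outside the members, H2-DMa, a chain of the factor that loads class II peptides, averaged 2.08 ± 0.608 FPKM in K27M and 1.56 ± 0.412 FPKM in WT-Tag hindbrain cultures, and 1.89 ± 0.526 FPKM in K27M and 1.65 ± 0.386 FPKM in WT-Tag forebrain cultures (SD, n = 3 each). In WT-Tag forebrain cultures this was the level of H2-Ab1 (1.66 ± 0.330 FPKM). H2-Aa averaged 0.0217 ± 0.0100 FPKM in K27M and 0.0467 ± 0.0396 FPKM in WT-Tag hindbrain cultures, and 0.0257 ± 0.0255 FPKM in K27M and 0.0427 ± 0.0240 FPKM in WT-Tag forebrain cultures (SD, n = 3 each). Cd74 averaged between 0.0143 and 0.0220 FPKM in the 4 groups and H2-Eb1 between 0.163 and 0.355 FPKM. These 3 genes did not reach 1 FPKM in any culture and were not tested there, so 7 of 10 members entered the culture comparisons. Ciita averaged at most 0.0497 FPKM in a culture group, and the defining markers Csf1r, Itgam and C1qa at most 0.0747 FPKM. The steps between low FPKM values are set by whole reads, and a single read can make such a level. B2m was the highest member in cultures, at group means of 92.7 to 103 FPKM, ahead of H2-K1 at 13.6 to 21.9, H2-D1 at 5.80 to 8.92, Tapbp at 4.64 to 6.18, Tap1 at 2.88 to 3.69 and Psmb8 at 0.853 to 1.21 FPKM.

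In hindbrain cultures H2-Ab1 was higher with K27M. It was at 9.67, 5.71 and 9.98 FPKM in K27M cultures 1, 2 and 3, against 2.89, 3.06 and 4.10 FPKM in WT-Tag cultures 1, 2 and 3. Every K27M culture lay above every WT-Tag culture. The log2 change was 1.10 ± 0.21 with a limma adjusted p of 0.00984, and H2-Ab1 was the 1 of 7 members called, where 13.5% of 13190 genes were called, 8.42% higher and 5.13% lower. Groups without overlap were found for H2-Ab1 alone of the 7, and for 28% of all genes tested. It missed the threshold without experiment 3 (1.09, adjusted p = 0.0892), in which the sexes of the 2 genotypes differ and whose removal leaves 2 cultures a group, all female. The sum of microglia and macrophage markers was 15.49 to 23.6 FPKM in K27M and 17.6 to 18.8 FPKM in WT-Tag hindbrain cultures. Of these 21 markers 1, Aif1, was at 0 in all 3 K27M cultures. Of the 3 markers tested 2 had positive changes (median log2 change 0.11) and none passed. The part of such cells in the H2-Ab1 difference was not tested.

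**Figure D5:**
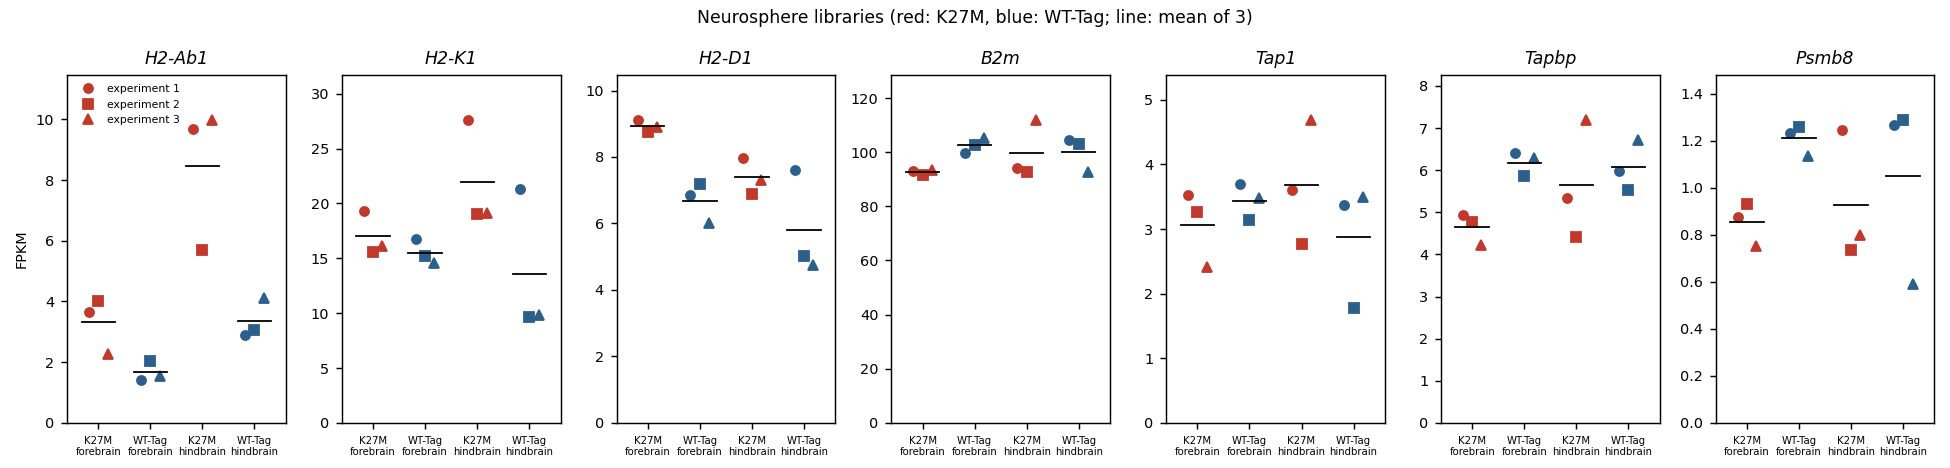
FPKM of 7 members in the 12 cultures (vertical axes start at 0), with K27M left of WT-Tag for forebrain and hindbrain, the marker shape giving the experiment and a line at the mean of 3. H2-Ab1 in the 3 K27M hindbrain cultures lies at 5.71 to 9.98, above all other cultures, and H2-K1 in WT-Tag hindbrain culture 1 lies at 21.3, apart from 9.63 and 9.84 in the other two.

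H2-K1 was at 27.6, 19.1 and 19.1 FPKM in K27M hindbrain cultures 1, 2 and 3, against 21.3, 9.63 and 9.84 FPKM in WT-Tag hindbrain cultures. WT-Tag culture 1 lay within the K27M range. The log2 change was 0.72 ± 0.25 (adjusted p = 0.0799), and with experiment id as a block, which compares cultures of the same experiment, it passed (adjusted p = 0.0194). The call thus turned on the model, and also on WT-Tag culture 1. Without that culture H2-K1 passed at 1.07 (adjusted p = 0.00109) and H2-D1 at 0.51 (0.0032). With it H2-D1 was at 7.98, 6.88 and 7.31 FPKM in K27M cultures, against 7.62, 5.03 and 4.75 FPKM in WT-Tag cultures, a change of 0.33 ± 0.14 (adjusted p = 0.138). Tap1 (0.29 ± 0.20), B2m (−0.01 ± 0.09), Tapbp (−0.11 ± 0.14) and Psmb8 (−0.08 ± 0.16) had overlapping groups and adjusted p of 0.358 to 0.957.

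The other antigen presentation genes went both ways in K27M hindbrain cultures. Psmb10, another immunoproteasome subunit, was at 8.90, 8.02 and 7.37 FPKM in K27M cultures, against 14.1, 13.8 and 14.2 FPKM in WT-Tag cultures (log2 change −0.73 ± 0.10, adjusted p = 0.00247). It and Erap1, which trims peptides for class I (−0.57 ± 0.11, adjusted p = 0.0106), were the 2 calls among 9 tested genes of peptide supply, both lower, with a median of −0.16. H2-Q7 was the 1 call among 6 other class I genes (0.71 ± 0.15, adjusted p = 0.0131, median 0.27). Of 6 class II control and processing genes Ifi30, a lysosomal thiol reductase, was higher (0.82 ± 0.20, adjusted p = 0.0250) and the protease gene Lgmn lower (−0.73 ± 0.16, adjusted p = 0.0141), with a median of 0.27. The 1 other class II gene tested did not pass. Of 16 interferon genes 3 were higher and 2 lower, with a median of 0.06 against 0.09 over all genes. They included Bst2, which encodes tetherin (1.64 ± 0.30, adjusted p = 0.00737), the interferon gamma receptor genes Ifngr1 (0.45 ± 0.11, 0.0203) and Ifngr2 (0.43 ± 0.11, 0.0272), and the lower gene Irgm1, an interferon-induced GTPase (−0.99 ± 0.15, 0.00408). Without experiment 3 Psmb10 kept its call (adjusted p = 0.0442) and Erap1 (0.0819), H2-Q7 (0.130), Ifi30 (0.186), Lgmn (0.127), Bst2 (0.151), Ifngr1 (0.209), Ifngr2 (0.184) and Irgm1 (0.106) did not.

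Among cell markers in the hindbrain cultures, 0 of 3 tested microglia and macrophage genes passed and no T, NK, B or endothelial gene passed the filter. Both tested genes of the dendritic cell list were higher, Batf3 (0.85 ± 0.25, adjusted p = 0.0458) and Zbtb46 (0.58 ± 0.14, 0.0198). The summed level of that list was 5.22 to 6.48 FPKM in K27M and 2.26 to 4.23 FPKM in WT-Tag cultures. This sum includes both genes and is no separate result. Of the 9 list genes 7 in K27M and 8 in WT-Tag cultures had a mean under 1 FPKM. The 1 tested monocyte list gene, S100a4, was lower (−1.30 ± 0.39, adjusted p = 0.0486). Of 9 neural progenitor and glioma genes Vim (1.16 ± 0.19, adjusted p = 0.00518) and Nes (0.89 ± 0.26, 0.0474) were higher and Fabp7 (−0.77 ± 0.15, 0.00813) lower. The Batf3 call was lost in 10 of 12 alternatives and the Zbtb46 call in 8 of 12. Of the genes called in these marker lists none passed without experiment 3, with adjusted p of 0.131 (Vim) to 0.361 (S100a4).

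In forebrain cultures the H2-Ab1 difference went the same way and did not pass. It was at 3.65, 4.02 and 2.27 FPKM in K27M cultures 1, 2 and 3, against 1.42, 2.04 and 1.53 FPKM in WT-Tag cultures, with no overlap and a log2 change of 0.68 ± 0.21 (adjusted p = 0.216). H2-D1 was at 9.11, 8.76 and 8.89 FPKM in K27M cultures, against 6.85, 7.19 and 6.02 FPKM in WT-Tag cultures (0.37 ± 0.14, adjusted p = 0.290). Tapbp was at 4.94, 4.78 and 4.22 FPKM in K27M cultures, against 6.40, 5.85 and 6.29 FPKM in WT-Tag cultures (−0.35 ± 0.14, adjusted p = 0.310). K27M lay above WT-Tag for H2-D1 and below it for Tapbp, again with no overlap. Psmb8 was at 0.877, 0.931 and 0.752 FPKM in K27M cultures, against 1.23, 1.26 and 1.14 FPKM in WT-Tag cultures (−0.26 ± 0.16, adjusted p = 0.532). B2m was at 93.2, 91.4 and 93.6 FPKM in K27M cultures, against 99.7, 103 and 105 FPKM in WT-Tag cultures (−0.14 ± 0.09, adjusted p = 0.556). The K27M and WT-Tag values of these 5 genes did not overlap, which held for 24.9% of all genes tested in the forebrain. H2-K1 (0.12 ± 0.25, 0.873) and Tap1 (−0.14 ± 0.20, 0.815) overlapped. By limma 0 of 7 members were called, where 0.356% of genes were called, 0.182% higher and 0.174% lower (47 genes, and 1726 at an unadjusted p under 0.05), and no gene of the other lists was called.

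The difference between the hindbrain and forebrain K27M effects was tested as an interaction. It passed for 0 of 7 members, where 0.0379% of genes passed, 0.0303% higher and 0.00758% lower (5 genes, and 831 at an unadjusted p under 0.05). The largest values were 0.60 ± 0.35 for H2-K1 (adjusted p = 0.909), 0.42 ± 0.28 for Tap1 (0.939) and 0.42 ± 0.30 for H2-Ab1 (0.960). Without WT-Tag hindbrain culture 1 the H2-K1 value was 0.95 and passed (adjusted p = 0.0449). The K27M effect on H2-Ab1, past the threshold in 1 region and not in the other, was therefore not shown to differ between them.

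H2-Ab1 also differed by region. Among K27M cultures it averaged 8.45 ± 2.38 FPKM in hindbrain and 3.31 ± 0.924 FPKM in forebrain (SD, n = 3 each), with no overlap, a log2 change of 1.12 ± 0.21 and an adjusted p of 0.0087, as the 1 of 7 members called where 7.92% of genes were called, 4.47% higher and 3.45% lower. H2-D1, lower in every hindbrain culture, was the other of 2 members without overlap, which held for 31.9% of genes. Without experiment 3 the change was 0.81 (adjusted p = 0.143). Among WT-Tag cultures it averaged 3.35 ± 0.654 FPKM in hindbrain and 1.66 ± 0.330 FPKM in forebrain, again with no overlap, and the change of 0.70 ± 0.21 had an adjusted p of 0.169, with 0 of 7 members called where 1.82% of genes were called, 1.11% higher and 0.713% lower, and 14.7% did not overlap. Mean H2-Ab1 was highest in WT-Tag and K27M tumors, which overlapped, and the order of the culture means was K27M hindbrain, then WT-Tag hindbrain and K27M forebrain, which overlapped, then WT-Tag forebrain. For the other 9 members the tumor groups also came first and overlapped, and of the culture groups H2-D1 stood lowest in WT-Tag hindbrain and highest in K27M forebrain, whereas B2m, Tapbp and Psmb8 stood lowest in K27M forebrain and highest in WT-Tag forebrain. H2-K1 had a region difference of 0.33 ± 0.25 in K27M (adjusted p = 0.499) and −0.27 ± 0.25 in WT-Tag cultures (0.806). H2-D1 had one of −0.24 ± 0.14 in K27M (adjusted p = 0.347) and −0.20 ± 0.14 in WT-Tag cultures (0.707). Without WT-Tag hindbrain culture 1 the WT-Tag differences of H2-D1 (−0.38, adjusted p = 0.0449) and H2-K1 (−0.62, 0.05) passed. For B2m, Tap1, Tapbp and Psmb8 the region differences lay between −0.23 and 0.22 and did not pass.

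In K27M cultures, where 4.47% of all genes were called higher in hindbrain, some of the surrounding genes were too. Ifi30 (0.86 ± 0.20, adjusted p = 0.0256) and Ctsl, a protease of class II processing (0.51 ± 0.13, 0.0399), were the 2 calls among 6 genes of class II control and processing, and Psme2, a proteasome activator subunit (0.34 ± 0.09, 0.0442), the 1 call among 9 of peptide supply. Of 16 interferon genes 3 were higher in hindbrain, among them Bst2 (1.70 ± 0.30, 0.00551), and 2 lower, among them Gbp3, a guanylate binding protein gene (−1.29 ± 0.14, 0.000257). The Psme2 call was lost in 10 of 12 alternatives (adjusted p up to 0.165). Without experiment 3 Gbp3 kept its call (adjusted p = 0.0101) and Bst2 (0.0998), Ifi30 (0.185) and Ctsl (0.394) did not. Gbp3 was also the 1 interferon gene called between regions in WT-Tag cultures, at 0.928 ± 0.297 FPKM in hindbrain and 4.70 ± 0.191 FPKM in forebrain (−1.57 ± 0.14, adjusted p = 0.000164).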

How the data were processed

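RNA-seq libraries were made from Trizol RNA with the TruSeq Stranded Total RNA kit, and the submitters' processing notes name CASAVA, TopHat2, STAR and mm9 with no versions or roles. The authors deposited 1 table of FPKM values. Neither the annotation nor the strand setting of the counting is stated in the labels, which leaves overlapping and near-identical genes uncertain. Of low values, 99.98% lay within 0.15 of a whole multiple of 1 read's worth in 3625 genes, which gave relative depth. FPKM are not counts, so limma 3.58.1 (R 4.3.3) was run on log2(FPKM + 1), which understates changes of low genes, with a trend, 2-sided, Benjamini-Hochberg adjustment over all genes and a threshold of 0.05. Genes needed an FPKM of 1 in 9 of 29 tumors (15360 genes), in 3 of 12 cultures (13190) or in 3 of 41 libraries (16803). Cultures were fitted as 4 groups with 1 spread. Correlations used permutation tests with 100000 resamples (20 tumors) or all 362880 orderings (9 tumors).

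The members, lists and tests were chosen with earlier results of these data known. Named genes are all members, up to 4 called genes with the largest change per list and comparison, and the 5 genes most like H2-Ab1 and H2-K1 across K27M tumors. Outside this rule, levels are also given for H2-T22, Cd3e, Ifng, Csf1r, Itgam and Aif1. Experiment ids in the labels pair the cultures. Deviations of same-numbered K27M and WT-Tag cultures from their group means correlated at 0.443, −0.234 and 0.352 in forebrain and 0.412, 0.152 and 0.438 in hindbrain. Those of different-numbered cultures correlated at −0.475 to 0.441 in forebrain and −0.345 to 0.0940 in hindbrain. Same-numbered hindbrain and forebrain cultures correlated at 0.668, 0.712 and 0.165 in WT-Tag and 0.216, −0.0471 and −0.0405 in K27M. The main fits used no pairing. Promoter sequences are from RefSeq (GRCm38.p6), a later build than mm9.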

Additional observations from a re-analysis of the deposited data

How the results depend on the processing

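Alternatives were a pseudocount of 0.1, no filter, quantile normalization, sex or the microglia and macrophage list as a covariate, tumors labelled female, tumors without WT-Tag tumors 8 and 9, experiment id as a replicate block, cultures without experiment 3, fits on the compared libraries alone, array weights, forebrain cultures as reference, and each library left out in turn. In tumors 0 of 10 members were called under each one that applied to tumors. In hindbrain cultures the count of members called between genotypes, 1, was 2 with the replicate block, 0 without experiment 3 and 1 to 3 over single libraries left out. For the interaction it was 0 to 1, and for hindbrain against forebrain 0 without experiment 3 in K27M and 0 to 2 over libraries left out in WT-Tag. The block changed no other call of a member. Without the 2 farthest tumors of each relation, 2 in place of 18 WT-Tag relations with lists and 4 in place of 36 between members passed. In K27M tumors 20 in place of 26 relations with lists and 37 in place of 41 between members passed. The cause of these shifts was not tested. Of 994 single values of members under alternatives 982 kept their direction or their lack of a call, 6 lost a call, 6 gained one and 0 called values turned sign, while 68 uncalled values did. Counts of all genes called moved more, between 0 and 26 in tumors (13 as reported), 0 and 106 in forebrain (47), 104 and 4305 in hindbrain (1787) and 0 and 324 for the interaction (5). By region they ran from 334 to 1218 in K27M (1044 as reported) and from 69 to 660 in WT-Tag (240). Members at under 0.1 FPKM in cultures are limited by depth, and counting error cannot be set from FPKM alone.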
